A study of Mus musculus with 9 samples.

Results

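The 40 genes described here are interferon-stimulated genes, nucleic acid sensors, interferon receptors and interferon-induced chemokines, taken as a fixed list of gene symbols. A gene was counted as measured when a probe set on the array was annotated with its symbol, and 38 of the 40 were, among 19505 measured genes in all. Ifi203 and Ifi44 were not analysed here. The tissue was the peri-infarct region, the strip of heart muscle next to the infarct, of female SCID mice 80 to 100 days old whose left anterior descending coronary artery had been tied off 4 weeks earlier. SCID mice lack functional T and B lymphocytes. The injection was saline in 1 group, cardiomyocytes made from induced pluripotent stem cells (called iCM) in another, and in the remaining group exosomes, small vesicles that had been precipitated from such cardiomyocytes (iCM-Ex). All 3 groups therefore carried an infarct, there was no group without one, and the core of the infarct and the remote muscle had been removed. Each group held 3 biological replicates, each hybridised to its own Clariom S array, and the labels do not state the species of the stem cells. With 3 arrays a group, precision is limited throughout.

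Interferons are secreted proteins that act on neighbouring cells through surface receptors. Those of type I are released when sensors detect viral or misplaced nucleic acid. Type I interferons bind the receptor made of Ifnar1 and Ifnar2, and type II interferon binds the receptor made of Ifngr1 and Ifngr2. The receptors activate kinases that phosphorylate STAT proteins. Complexes that contain Stat2 and Irf9 bind the interferon-stimulated response element (ISRE), and the gamma-activated site (GAS) is another bound element, both in the promoters of interferon-stimulated genes. After a myocardial infarct, nucleic acid from dying cells is a known trigger of this response in infiltrating macrophages.

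Promoter sequence was at hand for 32 of the 40 genes, as windows from 250 bases before to 50 bases after an annotated transcript start (RefSeq, mouse build GRCm38.p6). The 8 without a window were Dhx58, Usp18, Parp14, Mx1, Mx2, Oas2, Zbp1 and Ifi204. The windows were searched for the ISRE letters GAAANNGAAA, or TTTCNNTTTC on the other strand, and for the GAS letters TTCNNNGAA, which read the same on both strands. ISRE letters were found in 15 of the 32 genes (46.9%), against 3.94% of the 15691 measured genes with a window, and GAS letters in 10 of 32 (31.25%), against 9.02%. None of the 4 receptor genes held ISRE letters, and Ifnar1 and Ifnar2 held GAS letters. The list consists largely of genes known for induction by interferon, so these shares describe the list. In 4 genes (Oas1a, Eif2ak2, Bst2 and Ifitm3) both kinds of letters were present, and they overlapped in Bst2 and Ifitm3. A match describes letters in the window and is not a measured binding site.

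The sequences below are examples from these windows, each 5′ to 3′ on the gene's strand with matches in capitals. Whether the letters relate to the differences in signal was not tested. Isg15 and Irf1 are given as the 200 bases before the start because they hold an ISRE array and a GAS match. Ifngr1, a receptor gene with lower signal in iCM, held neither kind of letters. For Mndal and Ifit3, where RefSeq also lists a start further upstream and the matches lie within the bounds of the gene, the 30 bases around a single ISRE match are given.
Isg15 (chr4:156200819-156201018, minus strand): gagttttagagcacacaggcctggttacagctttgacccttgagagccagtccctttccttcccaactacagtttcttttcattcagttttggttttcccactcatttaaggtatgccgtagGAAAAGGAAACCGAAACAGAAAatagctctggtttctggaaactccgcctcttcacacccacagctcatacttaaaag
Irf1 (chr11:53769814-53770013, plus strand): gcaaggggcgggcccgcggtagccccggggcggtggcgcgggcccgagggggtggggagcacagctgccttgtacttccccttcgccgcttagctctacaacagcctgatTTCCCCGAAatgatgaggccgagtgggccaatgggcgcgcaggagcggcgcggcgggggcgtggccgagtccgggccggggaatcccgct
Ifngr1 (chr10:19591749-19591948, plus strand): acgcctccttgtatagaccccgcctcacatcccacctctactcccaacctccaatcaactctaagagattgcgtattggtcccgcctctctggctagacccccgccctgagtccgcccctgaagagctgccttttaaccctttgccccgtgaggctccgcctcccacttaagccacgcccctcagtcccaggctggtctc
Mndal (chr1:173880204-173880233, minus strand): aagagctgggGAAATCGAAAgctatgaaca
Ifit3 (chr19:34583397-34583426, plus strand): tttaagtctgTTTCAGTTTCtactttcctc
The capitals in Isg15 are 3 overlapping ISRE matches at positions -78 to -57, counted back from the start. The Irf1 capitals are its only match in this window, of GAS type, at -90 to -82. In Mndal the match lies at -36 to -27, and in Ifit3 the match shown lies at -122 to -113 with a further ISRE match at -156 to -147.

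**Figure D1:**
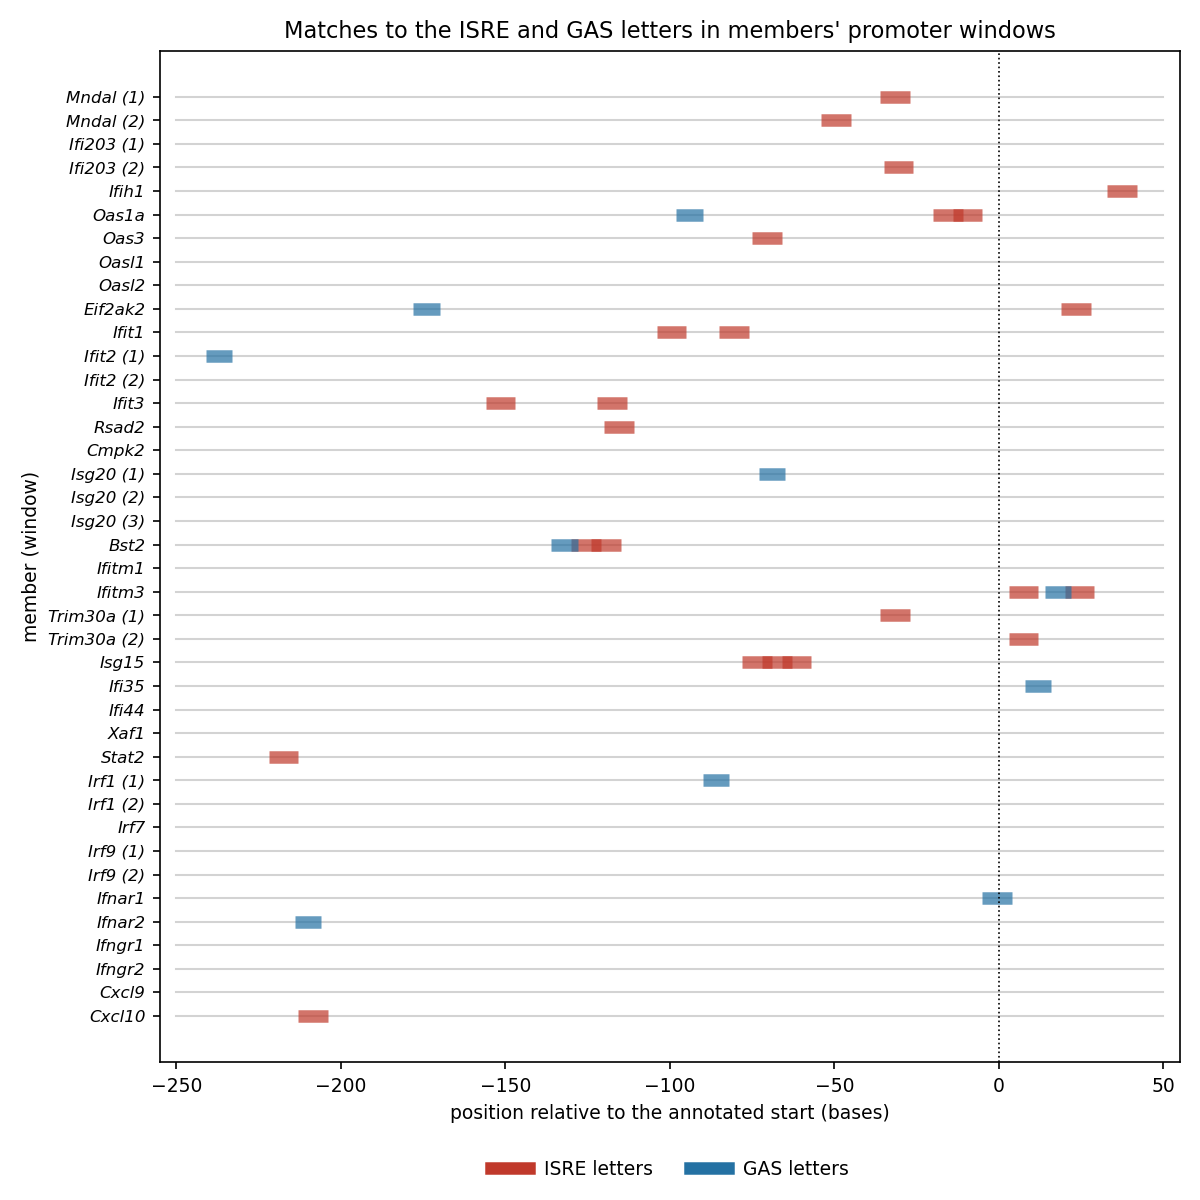
Matches to the ISRE letters (red) and GAS letters (blue) in each promoter window of the 32 genes, by position in bases from the annotated start, with window numbers in brackets where a gene has several. ISRE matches lie between -222 and 42. No match of either kind lies in the windows of Oasl1, Oasl2, Cmpk2, Ifitm1, Ifi44, Xaf1, Irf7, Irf9, Ifngr1, Ifngr2 and Cxcl9.

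Before the comparisons, the tissue label was checked against defining genes. All 10 cardiomyocyte markers lay above the median negative control on all 9 arrays, and 12 of 13 macrophage and monocyte markers were measured, all above it on all arrays. Of 6 measured B cell markers 0 lay above it on any array, and of 7 T cell markers 0 to 3 did. Natural killer cell markers, of a lymphocyte that SCID mice keep, were above it for 0 to 7 of 10. The library of iCM replicate 1 had a mean log2 signal of 11.45 over 10 lung epithelium markers and iCM-Ex replicate 3 of 8.61, against 4.24 to 5.85 on the other 7 arrays. In iCM replicate 2 the mean was 12.37 over 11 fast skeletal muscle markers (5.32 to 6.41 elsewhere) and 10.15 over 9 fat markers (5.77 to 7.07 elsewhere). The part of these tissues in the results was not tested, and values that leave out those 3 arrays are given with the calls below. Control separation, the median log2 signal of positive minus negative control probe sets, averaged 3.44 ± 0.15 on saline arrays, 2.94 ± 0.41 on iCM arrays and 3.77 ± 0.21 on iCM-Ex arrays (SD, n = 3).

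In the iCM hearts 4 of the 38 genes rose against saline and 2 fell. The risers were Zbp1, Mndal and Ifi204, which sense or bind nucleic acids, and Parp14, an enzyme that attaches ADP-ribose to proteins, by 1.88 to 4.88 on the log2 scale. The receptor genes Ifnar1 and Ifngr1 fell by 1.72 and 1.52. These 6 of 38 are 15.8%, against 3.67% of all genes by the same rule (limma, Benjamini-Hochberg adjusted p under 0.05 over 19505 genes), and the rises were 10.5% against 1.34% and the falls 5.26% against 2.33%. Means were higher in iCM for 29 of the 38 (76.3%), against 55.5% of all genes, and the median difference was 0.905, against 0.08 over all genes. By unadjusted p under 0.05 the count was 16 (42.1%, against 20.5%). All 3 iCM arrays lay above all 3 saline arrays for 7 genes (18.4%, against 13.8%) and below them for 3 (7.89%, against 10.2%). The genes were listed with earlier results of these data known, so the shares are descriptions and no test of the list was made. In dissected tissue, fewer cells of a type and less RNA per cell cannot be told apart.

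**Figure D2:**
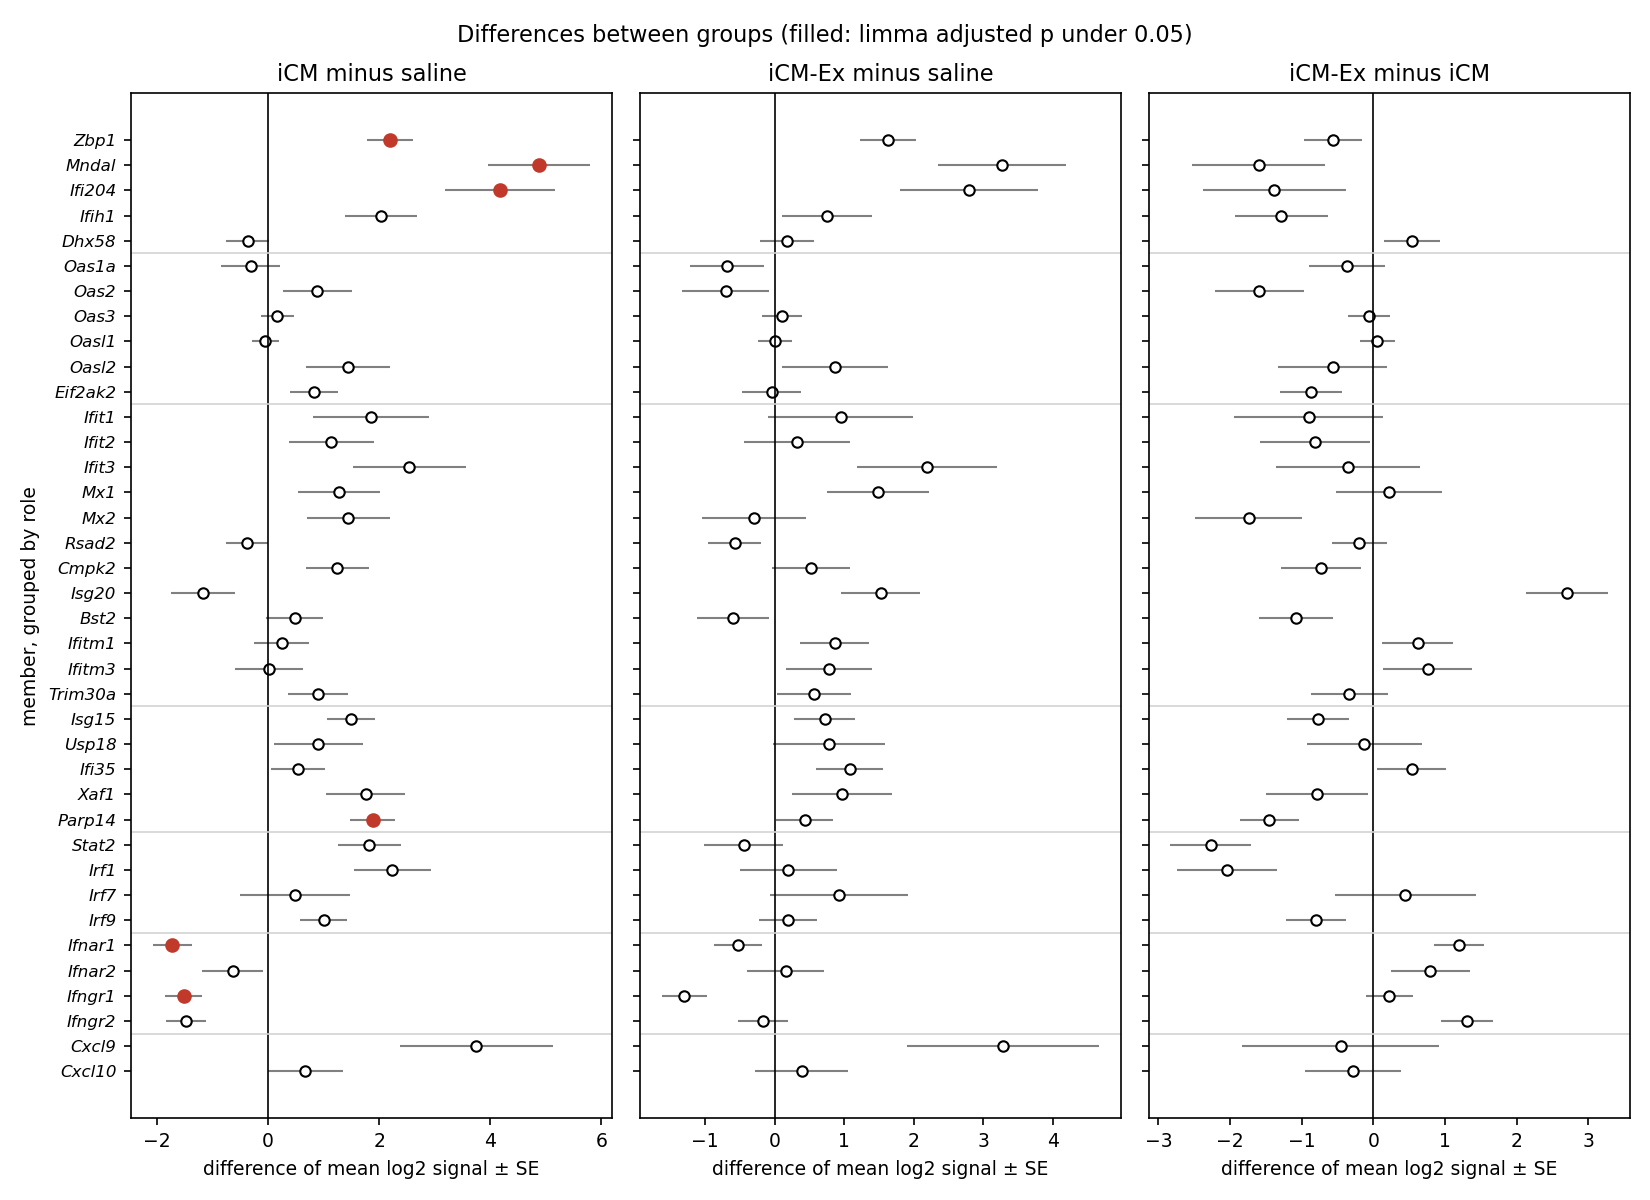
Difference in mean log2 signal for each of the 38 genes, with the moderated standard error as a bar, in the 3 comparisons; filled points have a limma adjusted p under 0.05. Filled points appear in the iCM minus saline panel alone, at 4 rises and 2 falls.

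Among the nucleic acid sensors, 3 of 5 measured genes rose in iCM, against 1.34% of all genes. Zbp1 recognises left-handed double-stranded nucleic acid and can trigger inflammatory cell death. Its log2 signals were 4.17, 3.56 and 5.01 in saline replicates 1 to 3, 6.74, 5.90 and 6.69 in iCM, and 5.86, 6.22 and 5.54 in iCM-Ex. The saline arrays lay below all others, and the saline mean of 4.25 ± 0.73 (SD, n = 3) lay below the mean of the median negative controls (5.29), so the size of the change is uncertain. Zbp1 rose by 2.20 ± 0.41 (log2, SE; limma adjusted p = 0.021), a 4.58-fold higher signal.

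Mndal encodes a nuclear protein of the PYHIN family, whose members bind DNA. Mndal signals were 6.90, 7.74 and 11.26 in saline, 12.94, 14.34 and 13.25 in iCM and 11.63, 12.47 and 11.63 in iCM-Ex. Saline replicate 3 stood far above the other saline arrays, yet below every array of the other groups. Mndal rose by 4.88 ± 0.92 in iCM (SE; limma adjusted p = 0.0228), 29.4-fold. Ifi204, a PYHIN protein that detects DNA, gave 6.97, 7.63 and 11.38 in saline, 11.66, 14.09 and 12.76 in iCM and 11.42, 11.72 and 11.23 in iCM-Ex. Saline replicate 3 was again the high saline array, and it exceeded iCM-Ex replicate 3. Ifi204 rose by 4.18 ± 0.99 (SE; limma adjusted p = 0.0486), 18.1-fold. Both sizes depended on the saline arrays. The Mndal difference was 4.01 without saline replicate 1 and 6.19 without saline replicate 3, and that of Ifi204 was 3.33 and 5.53.

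The other sensors measured are helicases that bind viral RNA. Ifih1 was higher in iCM by 2.04 without passing the threshold (limma adjusted p = 0.109), and Dhx58 differed by -0.36, with means below the median negative control in saline and in iCM. Mndal and Ifi204 lie in a cluster of related PYHIN genes on chromosome 1 (GRCm38, 173857215 to 173880382 and 173747293 to 173767069). Against 3.67% of all genes, none of 7 further measured genes of that cluster passed the threshold in iCM against saline. Their differences were 3.51 for Ifi211, 2.76 for Ifi207, 2.15 for Ifi209, 1.83 for Ifi208, 1.32 for Ifi214, 0.49 for Aim2 and -0.33 for Ifi213. The family holds near-identical copies, and probe sets that share sequence could divide the signal among them, so the value of any single member is uncertain.

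In iCM 1.34% of all genes rose, and among 5 measured genes of the ISG15 system and other induced genes Parp14 did. Its log2 signals were 6.36, 6.90 and 7.32 in saline, 8.58, 8.05 and 9.59 in iCM and 7.50, 7.34 and 7.04 in iCM-Ex. The iCM arrays lay above all others, and iCM-Ex overlapped saline. Parp14 rose by 1.88 ± 0.41 (SE; limma adjusted p = 0.037), 3.69-fold. Isg15 encodes a ubiquitin-like protein that is attached to other proteins during the interferon response. It gave 3.26, 4.43 and 4.70 in saline, 5.88, 4.87 and 6.10 in iCM and 4.89, 5.03 and 4.63 in iCM-Ex. The iCM arrays lay above saline by a difference of 1.49 ± 0.43 that did not pass (adjusted p = 0.0868), and the probe set exceeded the median negative control on 3 of 9 arrays. The other genes, the ISG15 protease gene Usp18, Ifi35 and the cell death factor gene Xaf1, were higher in iCM by 0.54 to 1.76 without a call.

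**Figure D3:**
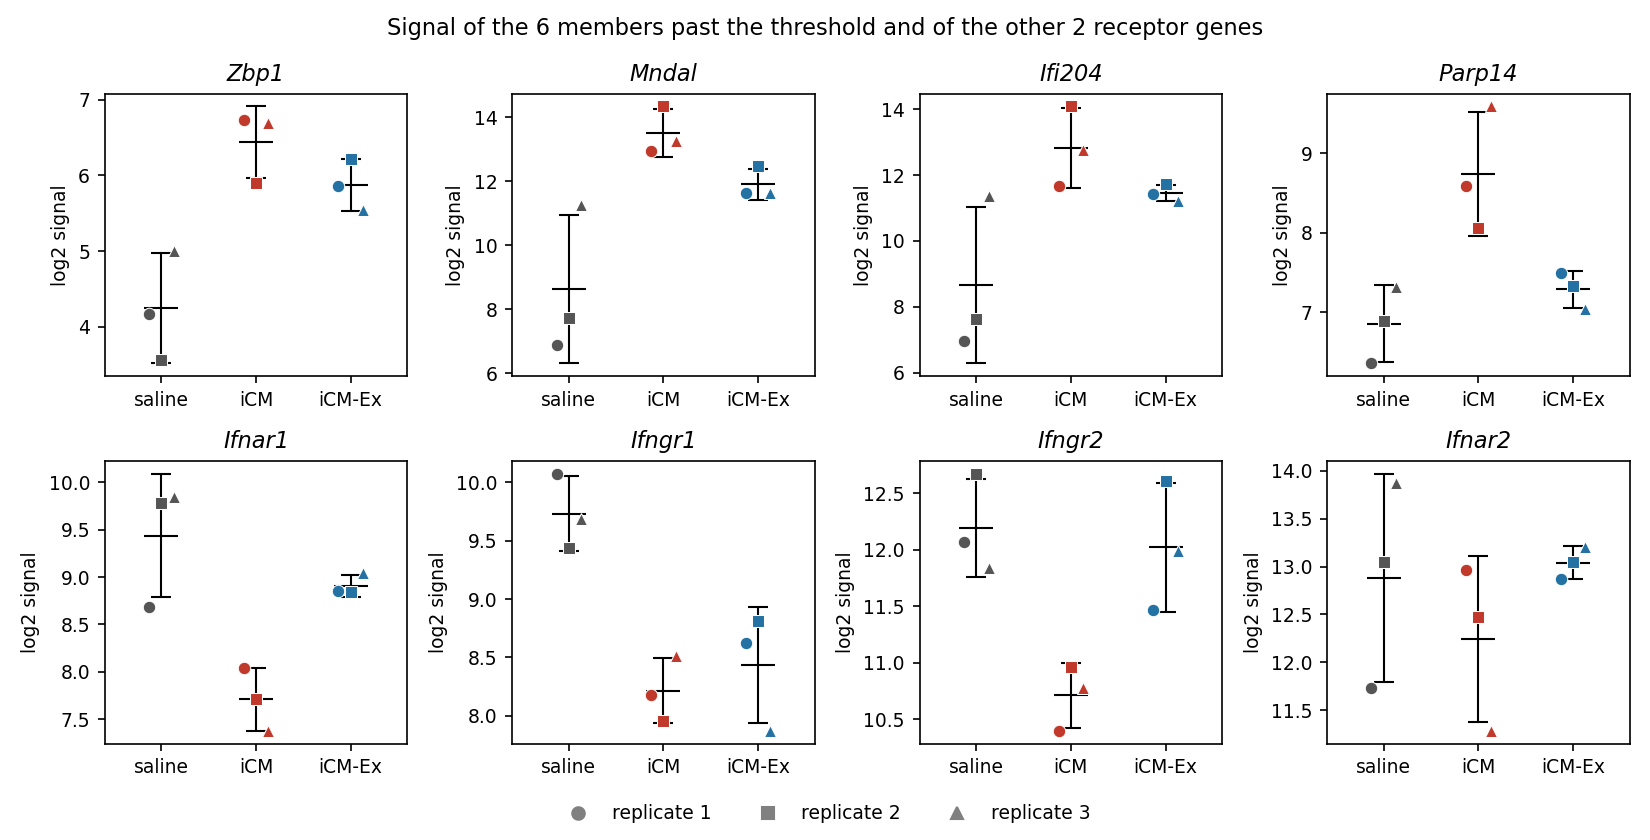
Log2 signal on each array for the 6 genes past the threshold in iCM against saline and for Ifngr2 and Ifnar2, with the group mean and SD of 3 arrays as bars; the scale differs between panels and does not start at 0. For Zbp1, Mndal, Ifi204 and Parp14 the iCM arrays lie above the saline arrays, and for Ifnar1, Ifngr1 and Ifngr2 below them.

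All 4 interferon receptor genes had lower means in iCM than in saline, while 55.5% of all genes had higher means. Of the 4 receptor genes 2 fell, against 2.33% of all genes. Ifnar1, a chain of the type I receptor, gave log2 signals of 8.68, 9.78 and 9.84 in saline, 8.04, 7.72 and 7.38 in iCM and 8.85, 8.84 and 9.04 in iCM-Ex. The iCM arrays were the 3 lowest of the 9. Ifnar1 fell by 1.72 ± 0.35 in iCM (SE; limma adjusted p = 0.0289), a 3.30-fold lower signal. Ifngr1 is the chain that binds type II interferon. It gave 10.07, 9.44 and 9.68 in saline, 8.18, 7.95 and 8.51 in iCM and 8.63, 8.81 and 7.87 in iCM-Ex, so the saline arrays lay above both other groups. Ifngr1 fell by 1.52 ± 0.33 (SE; limma adjusted p = 0.0358), 2.87-fold. Ifngr2, the signalling chain of that receptor, gave 12.07, 12.67 and 11.84 in saline, 10.40, 10.97 and 10.78 in iCM and 11.47, 12.61 and 11.99 in iCM-Ex. Its iCM arrays were the 3 lowest, and the difference of -1.48 ± 0.36 missed the threshold (adjusted p = 0.0521). Ifnar2, the other type I chain, gave 11.73, 13.05 and 13.88 in saline, 12.97, 12.48 and 11.29 in iCM and 12.87, 13.05 and 13.21 in iCM-Ex. Its groups overlapped, with a difference of -0.64 ± 0.55 (adjusted p = 0.556).

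Ifnar2, Ifnar1 and Ifngr2 are neighbours on chromosome 16 (GRCm38, 91372783 to 91405589, 91485032 to 91510523 and 91547059 to 91564007), while Ifngr1 lies on chromosome 10 (19591949 to 19610229). Il10rb, a chain of the type III interferon receptor and of several interleukin receptors, lies between Ifnar2 and Ifnar1 and was in the list of other signalling genes. Its signals were 12.43, 12.72 and 13.02 in saline, 10.20, 9.34 and 10.44 in iCM and 10.57, 12.10 and 11.91 in iCM-Ex. All saline arrays lay above all others, and Il10rb fell by 2.73 ± 0.44 in iCM (SE; limma adjusted p = 0.0133). Without saline replicate 2 or iCM replicate 2 its adjusted p was 0.0612 or 0.0506, and without the 3 arrays that carried lung, muscle or fat markers it was 0.206 at a difference of -2.29. With control separation as a covariate it was 0.18 at a difference of -1.92.

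The calls of the 6 genes depended on single arrays. Zbp1 was not past the threshold without saline replicate 2 (limma adjusted p = 0.0818) or iCM replicate 3 (0.053), nor Mndal without saline replicate 2 (0.0958) or iCM replicate 2 (0.0843). Ifi204 passed without saline replicate 3 (0.0088) and iCM replicate 1 (0.0459). It did not pass with saline replicate 1 (0.106), saline replicate 2 (0.158), iCM replicate 2 (0.161), iCM replicate 3 (0.0887) or iCM-Ex replicate 1, 2 or 3 (0.0614, 0.0754 and 0.079) left out. Parp14 did not pass without saline replicate 1 (0.0805) or 2 (0.111), iCM replicate 1 (0.0553) or 3 (0.0697), or iCM-Ex replicates 2 and 3 (0.0596 and 0.0605). Ifnar1 did not without saline replicate 2 (0.11) or 3 (0.0794), iCM replicates 2 and 3 (0.0868 and 0.0697) or iCM-Ex replicates 2 and 3 (0.0501 and 0.0514). Ifngr1 did not without saline replicates 1, 2 and 3 (0.0748, 0.0859 and 0.0758) or iCM replicates 1, 2 and 3 (0.0637, 0.114 and 0.0503). The count of listed genes past the threshold was 3 without saline replicate 1, iCM replicate 2, iCM-Ex replicate 2 or iCM-Ex replicate 3. It was 1 without iCM replicate 3 and 0 without saline replicate 2. The 3 without iCM replicate 2 were Irf1, Parp14 and Zbp1, and Irf1 is not among the 6.

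With only the saline and iCM arrays in the fit, none of the 6 passed (limma adjusted p = 0.0589 to 0.11). Without the 3 arrays that carried lung, muscle or fat markers, which leaves 1 iCM array whose spread is taken to be like that of the other groups, the differences were 2.45 for Zbp1, 4.62 for Mndal, 4.10 for Ifi204, 2.73 for Parp14, -2.06 for Ifnar1 and -1.22 for Ifngr1, with adjusted p from 0.104 to 0.331. With control separation as a covariate they were 2.80, 5.07, 3.91, 2.52, -1.52 and -1.29 in the same order, with adjusted p from 0.0691 to 0.322. The directions of all 6 were kept in these fits. Quantile normalisation ended the call of Ifngr1 (0.0557), and keeping all rows except controls ended that of Ifi204 (0.0507). Among genes above the median, which leaves Zbp1 out, Ifngr2 passed as well (0.0486).

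The 4 transcription factor genes had higher means in iCM than in saline and none passed the threshold. Of these, 3 reached an unadjusted p under 0.05 (limma). Among all genes, 55.5% had higher means and 20.5% such a p. Irf1, which activates many interferon-induced promoters, gave 8.88, 8.72 and 9.80 in saline, 12.60, 9.58 and 11.93 in iCM and 8.54, 9.60 and 9.85 in iCM-Ex. iCM replicates 1 and 3 were high and iCM replicate 2 lay within the saline range. The difference was 2.24 ± 0.70 (SE; adjusted p = 0.103), and 3.13 without iCM replicate 2, where it passed (0.0264). Stat2, which acts with Irf9 downstream of the type I receptor, gave 8.28, 7.28 and 8.71 in saline, 10.09, 8.77 and 10.89 in iCM and 7.44, 8.31 and 7.18 in iCM-Ex. The iCM arrays lay above both other groups, narrowly over saline replicate 3, at a difference of 1.83 ± 0.56 (adjusted p = 0.1). Irf9, the DNA-binding partner of Stat2, gave 6.12, 6.39 and 6.82 in saline, 7.75, 6.50 and 8.09 in iCM and 6.25, 6.78 and 6.90 in iCM-Ex, again with iCM replicate 2 low. Irf7, which amplifies type I interferon production, gave 4.55, 5.43 and 8.63 in saline, 7.91, 5.30 and 6.83 in iCM and 6.36, 8.06 and 6.97 in iCM-Ex. Its highest array was saline replicate 3. The iCM differences of Irf9 and Irf7 were 1.0 and 0.48 (adjusted p = 0.209 and 0.831).

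Among 12 antiviral effector genes, 10 had higher means in iCM, against 55.5% of all genes, and none passed the threshold. An unadjusted p under 0.05 was found for 2 (limma, against 20.5% of all genes). Ifit3 belongs to a family that binds foreign RNA, and gave 8.07, 8.23 and 10.94 in saline, 13.01, 9.14 and 12.71 in iCM and 10.79, 11.45 and 11.56 in iCM-Ex. Saline replicate 3 was high and iCM replicate 2 low, so that the groups overlapped at a difference of 2.54 ± 1.01 (SE; adjusted p = 0.187). Isg20, an exonuclease that degrades viral RNA, ran the other way, with 7.09, 8.49 and 9.71 in saline, 7.81, 6.77 and 7.18 in iCM and 9.51, 10.23 and 10.11 in iCM-Ex. It had the lowest difference of the 34 genes that are not receptors, -1.18 (adjusted p = 0.281). Ifit1, Ifit2, Mx1, Mx2, Cmpk2, Bst2, Ifitm1, Ifitm3 and Trim30a had differences from 0.02 to 1.86, and Rsad2 -0.38. The saline means of Mx1 and Rsad2 lay below the median negative control, so the sizes of these differences are uncertain. RefSeq lists Mx1 and Mx2, dynamin-like antiviral GTPase genes, as transcribed pseudogenes in this assembly.

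None of the 6 genes of the oligoadenylate synthetase family and protein kinase R passed the threshold in iCM. An unadjusted p under 0.05 was reached by none of them (limma, against 20.5% of all genes). Oas2, which makes the second messenger that activates RNase L, gave 4.16, 4.92 and 6.61 in saline, 5.73, 5.49 and 7.14 in iCM and 4.36, 5.06 and 4.17 in iCM-Ex. Eif2ak2, the protein kinase R gene, whose product stops translation on double-stranded RNA, gave 8.11, 8.47 and 8.79 in saline, 9.85, 8.51 and 9.49 in iCM and 8.21, 9.14 and 7.88 in iCM-Ex. Both overlapped between saline and iCM, with differences of 0.89 and 0.83 (adjusted p = 0.457 and 0.311). Oas1a, Oas3, Oasl1 and Oasl2 differed by -0.31 to 1.44, and Oas3 and Oasl1 were below the median negative control on all 9 arrays. The Oas2 means in saline and iCM-Ex also lay below it, so the sizes of the Oas2 differences are uncertain.

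The chemokines Cxcl9 and Cxcl10 attract lymphocytes through a shared receptor. Cxcl9 gave 5.08, 4.62 and 5.64 in saline, 10.69, 6.64 and 9.24 in iCM and 6.92, 11.98 and 6.30 in iCM-Ex. All 6 arrays of the other groups lay above saline, with single arrays far apart, and neither difference passed: 3.75 ± 1.38 in iCM (SE; adjusted p = 0.156) and 3.29 ± 1.38 in iCM-Ex (0.291). Without iCM-Ex replicate 2 the latter was 1.5. The saline mean of Cxcl9 lay below the median negative control, so the sizes of both differences are uncertain. Cxcl10 gave 5.15, 4.50 and 7.16 in saline, 7.32, 5.45 and 6.07 in iCM and 5.77, 6.56 and 5.65 in iCM-Ex, with overlapping groups and an iCM difference of 0.67 (adjusted p = 0.617).

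**Figure D4:**
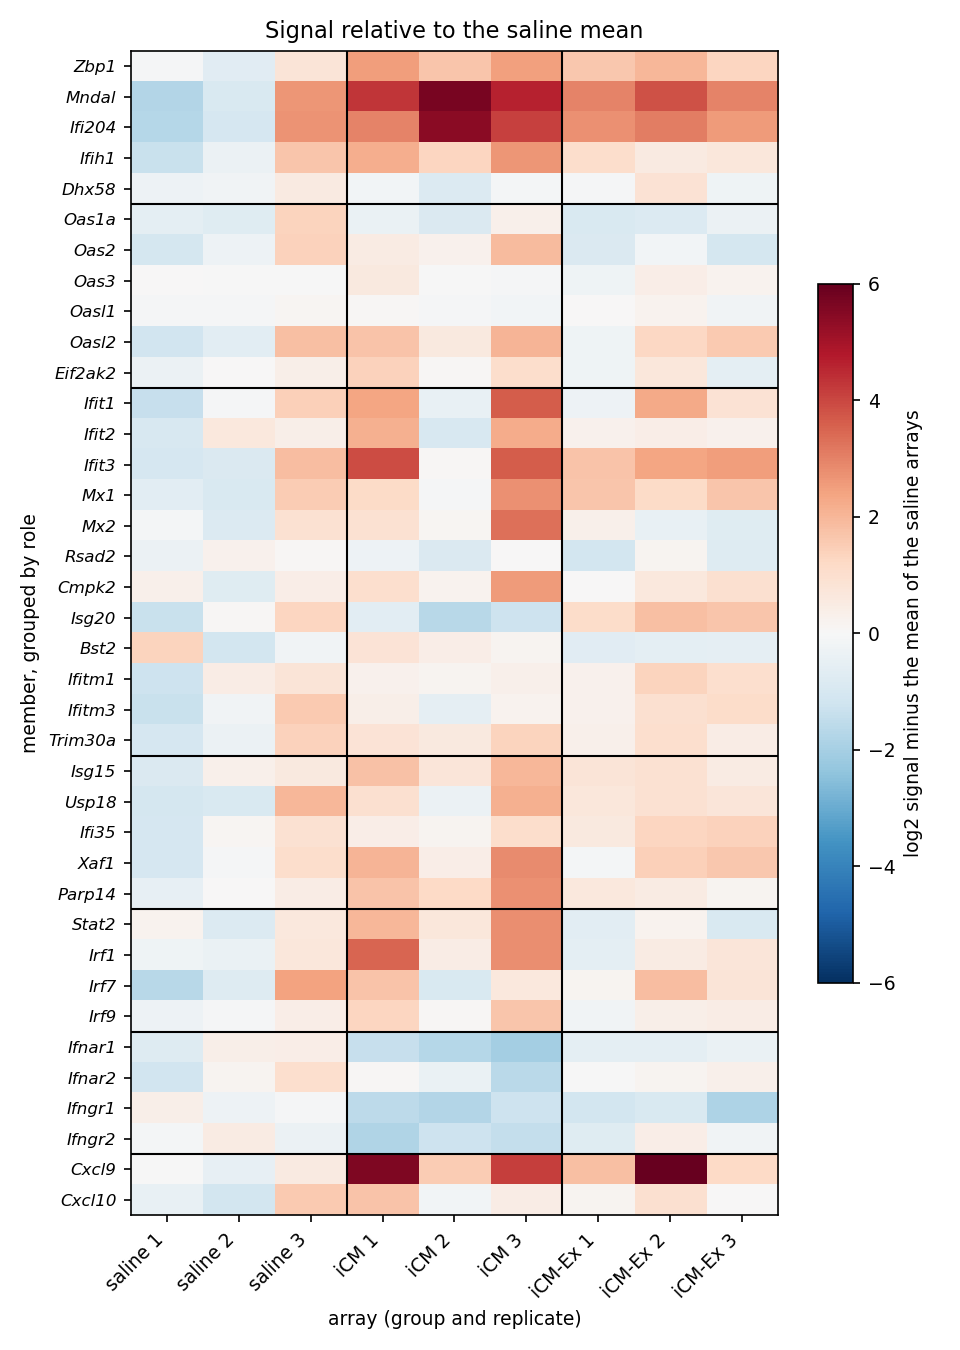
Log2 signal of each of the 38 genes on each array minus that gene's saline mean, with genes ordered by role and groups divided by lines. Of the 34 genes that are not receptors, 30 are highest in replicate 3 among saline arrays and 29 lowest in replicate 2 among iCM arrays, and most receptor cells are blue in iCM.

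In the iCM-Ex hearts none of the 38 genes passed the threshold against saline, where 0.349% of all genes did (limma; 0.22% rose and 0.128% fell), and 7 had an unadjusted p under 0.05 (18.4%, against 15.2%). These were Cxcl9, Ifi204, Ifi35, Ifngr1, Isg20, Mndal and Zbp1. The iCM and iCM-Ex comparisons share the saline arrays, so their values are set side by side only. Zbp1 was higher by 1.63 ± 0.41 in iCM-Ex (SE; adjusted p = 0.109) and by 2.20 in iCM, Mndal by 3.27 ± 0.92 (0.141) and 4.88, and Ifi204 by 2.79 ± 0.99 (0.222) and 4.18. Ifngr1 differed by -1.30 ± 0.33 (0.111) and -1.52, while in iCM-Ex Ifnar1, Ifnar2 and Ifngr2 differed by -0.53, 0.16 and -0.17. Means were higher in iCM-Ex for 28 of the 38 (73.7%, against 53.5%), and the median difference was 0.477, against 0.044 over all genes. All iCM-Ex arrays lay above all saline arrays for 3 genes (7.89%, against 12.2%) and below for 1 (2.63%, against 9.53%). Without saline replicate 3, Mndal and Ifi204 passed, at 4.59 (adjusted p = 0.0109) and 4.15 (0.0237).

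Set directly against iCM, none of the 38 genes passed in iCM-Ex, where 1.07% of all genes did (limma; 0.795% rose and 0.272% fell). By unadjusted p 8 did (21.1%, against 14.5%). Means were higher in iCM-Ex for 12 of the 38 (31.6%, against 46.1%). All iCM-Ex arrays lay above all iCM arrays for 3 genes (7.89%, against 10.2%) and below for 6 (15.8%, against 10.0%). Isg20 had the smallest adjusted p, higher in iCM-Ex by 2.70 ± 0.57 (SE; 0.0582), with its 3 iCM-Ex arrays above all 6 others apart from saline replicate 3, which exceeded 1 of them. It passed without saline replicate 1 (0.0314) or saline replicate 3 (0.0335). Stat2, Irf1, Mx2, Oas2 and Parp14 had lower means in iCM-Ex, with differences of -2.27, -2.04, -1.74, -1.59 and -1.45, with adjusted p of 0.0883, 0.196, 0.314, 0.266 and 0.125. Ifnar1 and Ifngr2 were higher by 1.20 and 1.31 (0.137 and 0.114), and all 4 receptor means were higher. For Mndal and Zbp1 the differences were -1.60 ± 0.92 and -0.57 ± 0.41, which passed at neither level (adjusted p = 0.485 and 0.596). The median difference was -0.416, against -0.044 over all genes. An F test across the 3 groups called Mndal (adjusted p = 0.0416) and Zbp1 (0.0368), 2 of 38, against 3.32% of all genes, and 13 of 38 had an unadjusted p under 0.05 (21.8% of all genes did).

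The genes varied more between arrays of a group than most genes did. The median SD of the 38 was 1.01 among saline arrays, 0.75 among iCM arrays and 0.43 among iCM-Ex arrays, against 0.41, 0.41 and 0.33 over all genes. The largest SD was 2.38 for Ifi204 in saline, 2.16 for Ifit3 in iCM and 3.11 for Cxcl9 in iCM-Ex. Of the 34 genes that are not receptors, 30 were highest among the saline arrays in replicate 3, which held for 35.4% of all genes, and 29 were lowest among the iCM arrays in replicate 2, against 34.3%. The mean over these 34 genes was 6.22, 6.52 and 7.95 in saline, 8.40, 7.31 and 8.69 in iCM, and 7.27, 8.03 and 7.54 in iCM-Ex. Saline replicate 3 thus exceeded iCM replicate 2 and 2 of the iCM-Ex arrays. The mean over the 4 receptor genes was 10.64, 11.24 and 11.31 in saline, 9.90, 9.78 and 9.49 in iCM, and 10.45, 10.83 and 10.53 in iCM-Ex, with iCM below all others.

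Macrophage and monocyte markers moved with part of this spread. Their mean over 12 markers was 8.62, 9.87 and 11.49 in saline, 10.25, 10.46 and 9.58 in iCM, and 10.72, 11.82 and 11.52 in iCM-Ex. Saline replicate 3 was the highest saline array for 11 of the 12, and saline replicate 1 the lowest for all 12. The log2 of their summed signal ranged from 15.33 to 18.74 on saline arrays, 16.19 to 18.29 on iCM arrays and 18.46 to 19.07 on iCM-Ex arrays. Most of that sum came from Lyz2. In iCM 1 of the 12 passed against saline, where 1.34% of all genes rose and 2.33% fell, and in iCM-Ex none did. The 1 was the scavenger receptor gene Cd163, which rose by 2.43 (limma adjusted p = 0.0418). Csf1r, Adgre1, C1qa, C1qb, Fcgr1 and Ccr2 had lower means in iCM than in saline, and the other macrophage and monocyte markers higher. The iCM array with the highest mean of the 34 genes, replicate 3, had the lowest macrophage mean of its group. Of 9 measured neutrophil markers, S100a9 rose in iCM by 3.20 from a saline mean below the median negative control (limma adjusted p = 0.0352), and it was higher in iCM-Ex by 3.11 (0.0874). The log2 of the summed neutrophil signal was 7.63 to 9.51 on saline arrays, 9.18 to 11.03 on iCM arrays and 9.38 to 10.59 on iCM-Ex arrays. On iCM replicate 2, where the sum was 11.03, S100a8 and S100a9 gave 9.95 and 9.55. Csf3r and Camp had lower means in iCM than in saline, and the other neutrophil markers higher. Mpo, Elane, Camp and Ngp had means below the median negative control in every group. Of 9 measured fat markers, Fabp4 rose in iCM by 2.91 (limma adjusted p = 0.0306), with summed signals of 15.37 to 15.73, 17.29 to 19.87 and 16.10 to 17.75 in the same order. These sums repeat Fabp4, which alone gave 15.35 in saline replicate 1, where the sum was 15.37. Adipoq, Plin1, Cidec, Lep, Ucp1 and Retn had saline means below the median negative control. Of 8 plasmacytoid dendritic cell markers, Tcf4 fell by 2.23 in iCM (limma adjusted p = 0.0402), with summed signals of 17.59 to 18.17, 15.89 to 18.79 and 16.95 to 18.84. These sums came almost wholly from Tcf4 and Cox6a2, with saline means of 16.55 and 17.20. Siglech, Ccr9, Klk1, Ly6d and Pacsin1 had saline and iCM means below the median negative control, so the sums do not measure this cell type. The natural killer cell genes Gzma and Klrk1 were higher in iCM by 1.91 and 1.63 without passing (limma adjusted p = 0.054 and 0.0741). Both had saline means (4.92 and 4.49) below the median negative control, so the sizes are uncertain. Of the 10 such markers, Klre1, Eomes, Ncr1 and Klrb1c had lower means in iCM than in saline, and the others higher. The summed signal of the 10 was 7.76 to 8.62, 8.14 to 9.29 and 8.60 to 9.03. The part of these cells in the gene differences was not tested.

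**Figure D5:**
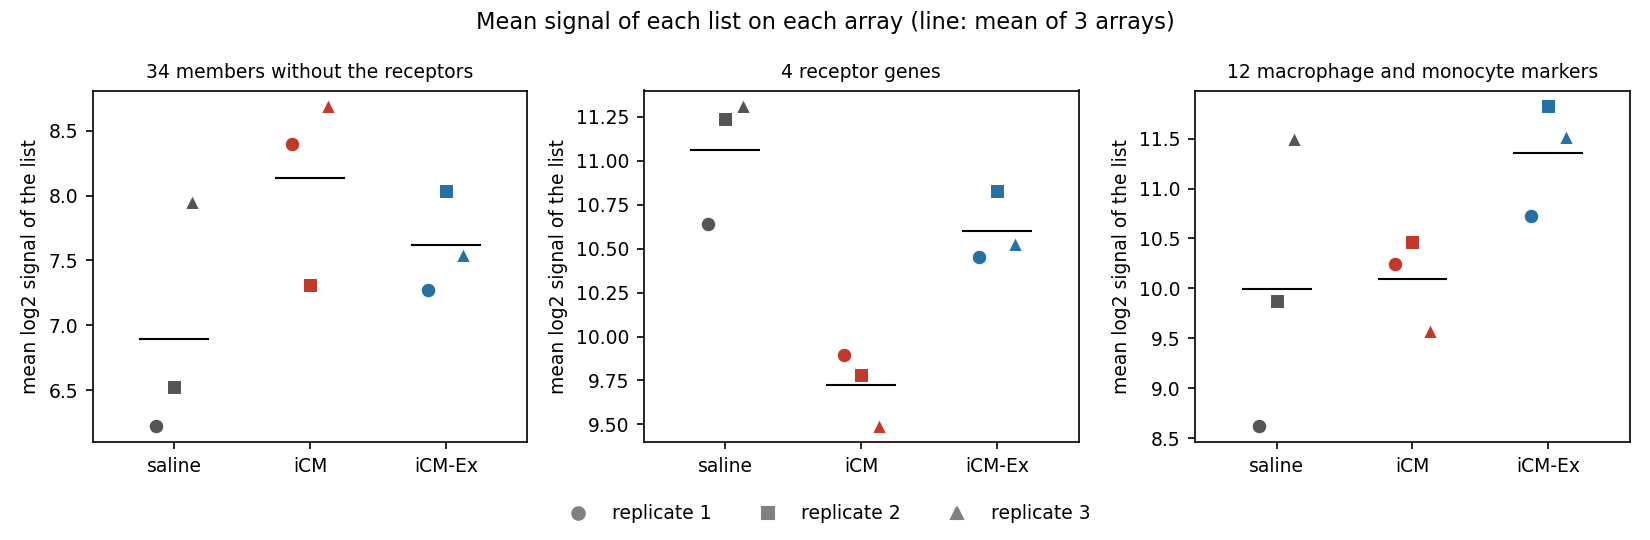
Mean log2 signal on each array over the 34 genes that are not receptors, the 4 receptor genes and 12 macrophage and monocyte markers, with a line at the mean of 3 arrays; the scales differ and do not start at 0. Saline replicate 3 (triangle) stands above the other saline arrays for the 34 genes and for the macrophage markers, and the iCM arrays are the lowest for the receptors.

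Other genes of the pathway were followed through 5 lists of 146 gene symbols, 130 of them measured, also written with earlier results of these data known. The 146 are not all different genes. Cgas and Mb21d1, Sting1 and Tmem173, and Rigi and Ddx58 are new and old symbols of the same genes. Of 19 interferon genes none passed in iCM against saline (limma), with 2 at an unadjusted p under 0.05, against 20.5% of all genes. The smallest p was that of Ifna5, higher by 1.15 ± 0.28 (SE, adjusted p = 0.0542), and the type I interferon gene Ifnb1 differed by 0.14. In saline only Ifna5 had a mean above the median negative control, and Ifnb1 lay below it in every group. The missing calls of the other interferon genes therefore say little about change. Of 12 measured signalling genes Il10rb alone passed, against 3.67% of all genes. None of 24 genes of sensing pathways passed, with 5 at an unadjusted p under 0.05, against 20.5% of all genes. The smallest p was that of Irf5, a factor downstream of Toll-like receptors, higher by 1.47 ± 0.38 (limma adjusted p = 0.0613). None of 6 genes that clear or edit nucleic acid passed, with 2 at an unadjusted p under 0.05, against 20.5% of all genes. The RNase H2 subunit gene Rnaseh2c was higher by 0.96 (limma adjusted p = 0.132).

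Of 69 further interferon-stimulated genes, 4 rose in iCM against saline (5.8%, against 1.34% of all genes) and none fell (against 2.33%). Means were higher for 53 (76.8%, against 55.5%), and the median difference was 0.92, against 0.08 over all genes. By unadjusted p under 0.05 the count was 34 (limma, 49.3%, against 20.5%). Gm4951, an interferon-inducible GTPase gene, rose by 2.47 ± 0.48 (SE; limma adjusted p = 0.0243) and Trim12c, of the tripartite motif family, by 2.26 ± 0.43 (0.0222). Slfn2, a Schlafen family gene, rose by 1.67 ± 0.38 (0.0402) and Nmi, whose product binds STAT proteins, by 1.69 ± 0.40 (0.0464). For all 4 the iCM arrays lay above the saline arrays. Gm4951 lost its call without saline replicate 2 (0.0984), and Trim12c without saline replicate 2, iCM replicate 2 or iCM replicate 3 (0.0612, 0.0711 and 0.053). Slfn2 passed only without iCM replicate 1 (0.0369) and Nmi only without saline replicate 3 (0.0368), and without each other array their adjusted p was 0.0506 to 0.125 and 0.0538 to 0.125. None of the 4 passed with only the saline and iCM arrays in the fit (0.0627 to 0.11), with control separation as a covariate (0.0843 to 0.303) or without the 3 arrays that carried lung, muscle or fat markers (0.0747 to 0.285).

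Against saline, iCM-Ex called none of the 130 genes (limma), with 23 at an unadjusted p under 0.05 (17.7%, against 15.2% of all genes). The smallest adjusted p was that of Ifi27l2a, an interferon-induced gene, with log2 signals of 7.15, 6.11 and 9.24 in saline, 10.44, 8.36 and 9.11 in iCM and 11.07, 11.18 and 11.81 in iCM-Ex. Its iCM-Ex arrays were the 3 highest, at a difference of 3.85 ± 0.74 (SE; adjusted p = 0.0675), and the F test called it (0.0452). In the other lists the smallest p belonged to the adaptor gene Mavs (-2.07, adjusted p = 0.173), the kinase gene Jak1 (0.95, 0.226), Rnaseh2c (1.21, 0.129) and Ifna7 (0.63, 0.292). Against iCM, iCM-Ex again called none, with 30 at an unadjusted p under 0.05 (23.1%, against 14.5% of all genes). Parp11, which like Parp14 attaches ADP-ribose to proteins, had the smallest adjusted p, with a difference of -1.56 ± 0.33 (0.0578) and all iCM-Ex arrays below all iCM arrays. In the other lists it belonged to Unc93b1, which carries Toll-like receptors to endosomes (2.48, adjusted p = 0.146), Stat3 (-1.52, 0.129), the RNA-editing gene Adar (-0.95, 0.38) and Ifna5 (-0.63, 0.346).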

How the data were processed

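RNA from 9 hearts (3 per group) was labelled from 5.5 µg of cDNA, per the labels' protocols. The authors deposited log2 signals, 1 per probe set and array. The submitters' processing notes name Affymetrix Expression Console, with settings not given in the sources used here. That values are log2 was taken from their range (2.25 to 19.93). Control rows (6640 of 28846) served for control separation and for the median negative control, a guide to background. Of 22206 gene rows 19572 had a symbol. The brightest row was kept for each of 55 genes with several, leaving 19505.

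All arrays entered 1 limma fit (3.58.1, R 4.3.3) with a mean per group and moderation by eBayes (residual degrees of freedom 6, prior 4.23). P-values were two-sided, adjusted by Benjamini-Hochberg over all 19505 genes per comparison, with a threshold of 0.05. The fit was tested on simulated data. Alternatives were quantile normalisation, genes above the median, all rows, the compared groups alone, each array left out, the replicate number as a block, control separation as a covariate, and no arrays that carried lung, muscle or fat markers.

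The members and lists were chosen with earlier results of these data known. Values on each array are given for members past the threshold, the 2 with the smallest F test p in each role, and all receptors and transcription factors; for other lists, genes past the threshold (at most 4) or else the smallest p. Other genes were named after their values were seen. Promoters and coordinates are from RefSeq (GRCm38.p6).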

Additional observations from a re-analysis of the deposited data

How the results depend on the processing

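Precision is limited by the number of arrays. It is also limited by signal over background, as 9 of the 38 genes in saline, 4 of them in iCM and 5 of them in iCM-Ex had a mean below the median negative control. Of 587 values for single genes under the alternatives, 486 stayed on their side of the threshold, 91 lost the call and 10 gained it. Only results past the threshold in the main fit could lose a call, and only the others could gain one. The 587 pool both kinds, so the 486 do not measure how stable the calls were. Of the 486, 2 changed sign without a call. In iCM against saline the 6 genes of the list past the threshold (716 of all genes) became 0 (279) with the compared groups alone, 2 (33) with control separation as a covariate, 0 (6) without the 3 arrays that carried lung, muscle or fat markers, and 0 to 6 (126 to 803) without 1 array; with the covariate the 2 were Ifit1 and Irf1. In iCM-Ex against saline the 0 (68) became 0 (1), 0 (5) and 0 (0) in the same 3 fits and 0 to 2 (0 to 163) without 1 array. In iCM-Ex against iCM the 0 (208) became 0 (13), 0 (0) and 0 (0), 0 to 1 (0 to 401) without 1 array, and 1 (352) among genes above the median; quantile normalisation gave 1, Isg20 in both cases. The F test's 2 became 5 under quantile normalisation and 5 among genes above the median, 0 with the covariate, 0 without the 3 arrays and 0 to 5 without 1 array. The median difference of 0.905 in iCM against saline became 1.92 with the covariate and 1.78 without the 3 arrays, and -0.416 in iCM-Ex against iCM became -1.93 with the covariate. The fits with fewer arrays or an added term have fewer degrees of freedom; otherwise the cause was not tested. Replicate numbers are shared by the groups, but arrays with the same number did not deviate together (correlations -0.257 to 0.068 over 9 pairs, against -0.156 to 0.249 over 18 with different numbers). The correlations thus gave no sign that the numbers pair the hearts, but with so few arrays per group they cannot exclude it. With the replicate number as a block 2 of the list (338 of all genes) passed in iCM against saline, Mndal (limma adjusted p = 0.0431) and Zbp1 (0.0472), with 0 (0) in iCM-Ex against saline, 0 (18) in iCM-Ex against iCM and 0 in the F test.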
